A study of Mus musculus with 4 samples.

Results

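Of 10 genes of uPA, Met, PAK and TAK1 signalling, 3 published targets of miR-23b fell in 4TO7 mammary tumour cells that carried the microRNA cluster miR-23b/27b/24, and the urokinase receptor rose. The 10 genes are 7 published targets (Plau, Met, Pak2, Ptk2b, Tab2, Tab3 and Chuk) and 3 partners of these (Plaur, Hgf and Map3k7). They were taken by gene name, with Tab2 and Tab3 listed on the array under their older names Map3k7ip2 and Map3k7ip3. They have 21 of the array's 41174 gene probes, and all 10 were among the 20512 genes tested. The targets come from earlier work on miR-23b in other cells, not from these arrays.

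4TO7 is a mouse mammary tumour line of strain BALB/cfC3H. The control group stably carried the retroviral vector pMSCV-puro alone, and the other group pMSCV-miR-23b/27b/24, so both groups carried a pMSCV vector. The sample titles name the puromycin marker for the control alone. The 2 arrays of a group are called transfection replicates in the series, and p-values measure the spread between such replicates. The sources used here do not say whether a line was a pool or 1 clone. Cell RNA carried Cy5, and Universal Mouse Reference RNA, pooled from 11 mouse cell lines, carried Cy3, so a log2 ratio is the level in the cells over that pool. Each difference below is miR-23b/27b/24 minus vector in log2, with its standard error (SE) from limma over 2 arrays a group.

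A microRNA pairs through its seed (bases 2 to 8) with messenger RNAs, which can be degraded or translated less, and an array reads the first of these effects alone. Urokinase (uPA, the product of Plau) is a secreted protease that turns plasminogen into plasmin and acts bound to its receptor uPAR (Plaur). Hepatocyte growth factor (Hgf) activates the receptor tyrosine kinase Met, which drives the scattering of epithelial cells. The kinase TAK1 (Map3k7) is recruited to ubiquitin chains by the adaptors TAB2 and TAB3 and activates the IKK complex, of which Chuk encodes the alpha kinase, upstream of NF-kappaB.

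The cluster in the construct holds miR-23b, miR-27b and miR-24, so a change need not belong to miR-23b. Mature sequences in RefSeq (GRCm38.p6, chromosome 13, plus strand) are shown with the seed in capitals, because the construct carries these microRNAs together. For miR-23b the sequence shown is that of the other arm, because miR-23b-3p had no entry in the source used. The seed of miR-23b-3p is therefore neither shown nor compared here. Whether the published targets hold sites for any of the seeds shown was not tested.
miR-23b-5p: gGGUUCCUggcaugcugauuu
miR-27b-3p: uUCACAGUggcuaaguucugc
miR-24-3p: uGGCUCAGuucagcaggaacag
The 3 lie at chr13:63300492-63300512, chr13:63300760-63300780 and chr13:63301251-63301272.

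The array itself reads the members through 60-base probes. Those of Plau, Plaur and Ptk2b below have mm7 coordinates (the build of the file headers) that span more than 60 bases and an open reading frame along the probe, so they lie across a splice junction and read spliced message. They are shown because for these genes a second probe can be set beside the brightest one.
Plau, chr14:18497190-18497556, plus strand: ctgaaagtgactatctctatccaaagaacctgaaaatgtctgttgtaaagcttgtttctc
Plaur, chr7:21262233-21262410, plus strand: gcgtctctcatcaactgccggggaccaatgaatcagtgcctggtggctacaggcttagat
Ptk2b, chr14:61034303-61035222, minus strand: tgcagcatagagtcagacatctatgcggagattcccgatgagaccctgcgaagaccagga

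At a limma adjusted p under 0.05, 1854 of 20512 genes were called, or 9.04%. The miR-23b/27b/24 cells were higher for 936 of these (4.56% of genes tested) and lower for 918 (4.48%). Between 69.9% and 74.8% of gene probes were well above background in Cy5 on an array. Of 10 markers of mammary epithelium 8 were well above background on all 4 arrays. So were 7 of 8 mesenchymal, 6 of 7 blood and 3 of 5 endothelial markers, so detection alone does not tell cell types apart. In the miR-23b/27b/24 cells 7 of the 10 epithelial markers were lower. The median log2 ratio of these 10 was 1.82 and 1.52 with vector and -0.10 and -0.01 with the cluster. Their part in the results below was not tested. Of 8 mesenchymal markers 1 was higher and none was lower by adjusted p. Of 7 markers of blood cells 1, Cd68, was lower, and of 5 endothelial markers none was called. Mesenchymal Cdh2, blood Itgam and endothelial Cdh5 and Emcn were not among the genes tested. Ptprc, the defining gene of blood cells, had log2 ratios between -5.82 and -5.72. Aopep, which hosts the cluster, had a log2 difference of -0.60 ± 0.27 (SE, limma adjusted p = 0.237), and mature microRNAs are not read by this array, so the expression of the cluster was not checked here. In bulk RNA, fewer cells with a transcript and less transcript per cell cannot be told apart.

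Of the 7 published targets, 3 fell (Tab3, Ptk2b and Pak2), none rose, and 4 were not called. The background share of genes that fell was 4.48%. At an unadjusted limma p under 0.05, 5 of the 7 were lower and 0 higher, against 12.9% and 14.3% of all genes. Of the 3 partners, Plaur rose. In all, 4 of the 10 genes were called. Ratios of the groups lay apart for 7 of the 10, with the miR-23b/27b/24 cells lower for 5, against 59.4% and 32.2% of all genes. The median log2 difference was -0.64 over the 7 targets and 0.42 over the 3 partners, against -0.03 over all genes. All 7 targets had a negative difference, as did 54.2% of all genes, but that of Met was near 0 and changed sign with the processing. The calls depended on the background step and on single arrays, for the 10 genes and for all genes. With every local background taken as measured, Plaur alone among the 10 was called, and 3.03% of all genes. Without either miR-23b/27b/24 array none of the 10 was called, and 0.395% of all genes. Without replicate 1 and 2 of that group, 5 and 4 of the 10 had an unadjusted limma p under 0.05, against 14.5% and 17.6% of all genes.

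**Figure D1:**
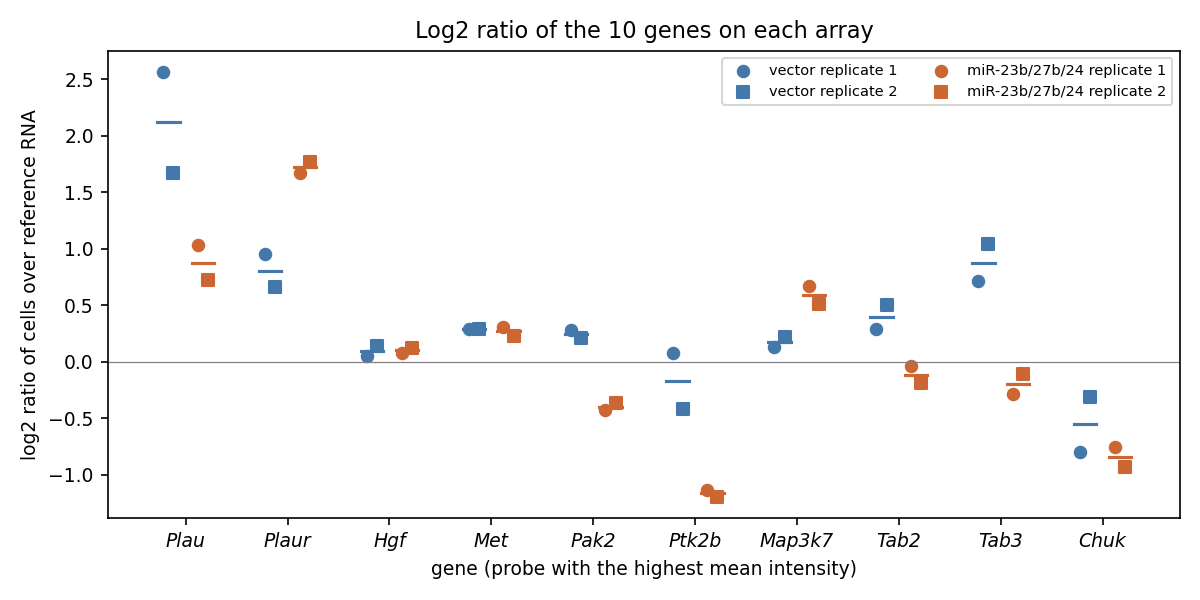
Log2 ratio of cells over reference RNA (vertical axis) for the brightest probe of each of the 10 genes (horizontal axis) on the 4 arrays, with blue for vector and orange for miR-23b/27b/24; symbols give the replicate and short lines the group means. The 2 groups lie apart for 7 genes and overlap for Hgf, Met and Chuk, and the vector arrays of Plau, at 2.57 and 1.67, lie far from each other.

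Urokinase and its receptor moved in opposite directions, of which the rise of the receptor was called. The brightest probe of Plau, at chr14:18499577-18499636, gave log2 ratios of 2.57 and 1.67 for vector replicates 1 and 2, and 1.04 and 0.72 for miR-23b/27b/24 replicates 1 and 2; values below keep this order. Its processed Cy5 intensity was 7619 and 4285 on the vector arrays and 2494 and 1886 on the others. Both vector arrays were thus above both others, but vector replicate 1 stood well above replicate 2. The log2 difference of -1.24 ± 0.33 (SE, 95% interval -2.09 to -0.40), the largest of the 10 in size, missed the threshold (limma adjusted p = 0.0853). It was -0.79 without vector replicate 1 and -1.69 without vector replicate 2. Without miR-23b/27b/24 replicate 1 and 2 it was -1.40 and -1.08. A fit with a lone array takes its spread from the other group alone, so only the sizes are given here. The junction probe of Plau printed above was dim, with Cy5 intensities of 332 and 214 on the vector arrays and 246 and 129 on the others. Its log2 ratios, 1.52 and 0.83 against 0.99 and 0.59, overlapped, and its difference was -0.38 (adjusted p = 0.429 in a fit of all probes). The size of the Plau difference therefore depended on the probe.

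Plaur, the receptor that holds urokinase at the cell surface, is a partner and not a published target. Its brightest probe, at chr7:21263487-21263546, gave log2 ratios of 0.95 and 0.66 with vector against 1.67 and 1.77 with the cluster. Its Cy5 intensity was 9827 and 7352 against 16606 and 17077. The groups did not overlap, and the replicates lay close together in the miR-23b/27b/24 group. Plaur rose by 0.92 ± 0.15 (SE, adjusted p = 0.0340 in limma), or 1.89-fold. The junction probe gave nearly the same, with log2 ratios of 1.08 and 0.82 against 1.80 and 1.98 and a difference of 0.94 (adjusted p = 0.0302 in the fit of all probes). Over 18 alternative settings the difference lay between 0.77 and 1.06, and 14 of them called it.

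Neither Met nor its ligand showed a detected difference. Met, at chr6:17493755-17493814, is read by 1 probe under its own name. Its log2 ratios were 0.30 and 0.29 with vector against 0.31 and 0.23 with the cluster, and its Cy5 intensities 516 and 646 against 593 and 552. The 4 arrays lay within a narrow range and the groups overlapped. The difference was -0.02 ± 0.12 (SE, adjusted p = 0.936 in limma), with a 95% interval of -0.33 to 0.29, which leaves room for a small change of either sign. It was positive in 4 of 18 settings, between 0.02 and 0.11.

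Hgf, the ligand of Met, was at the edge of detection. Of its 4 probes 1, at chr5:15577746-15577805, passed the filter on dim probes, with both vector arrays and 1 of the 2 miR-23b/27b/24 arrays well above background. Its Cy5 intensities were 47.0 and 63.8 on the vector arrays and 53.1 and 39.1 on the others. The log2 ratios of 0.05 and 0.14 against 0.08 and 0.12 overlapped, and the difference was 0.01 ± 0.12 (SE, limma adjusted p = 0.981). Of the other 3 probes, 1 was well above background on 1 vector array and 2 on no array, with Cy5 intensities between 5.78 and 59.6, while all 4 were well above background in the reference on every array.

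**Figure D2:**
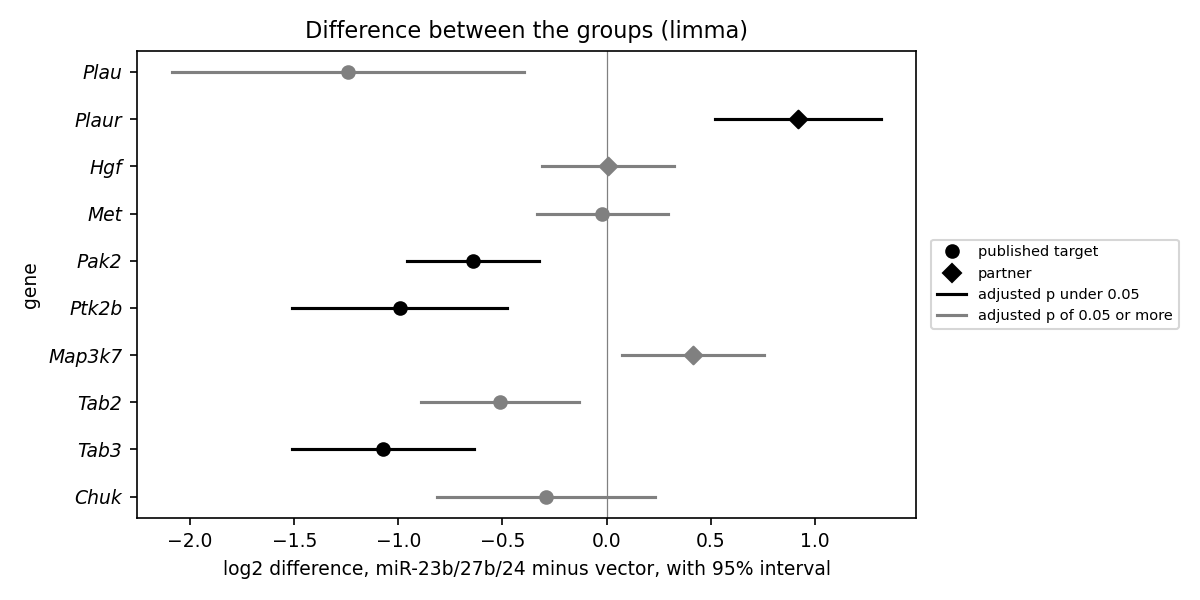
Log2 difference between miR-23b/27b/24 and vector arrays (horizontal axis) with its 95% interval from limma, for each of the 10 genes (vertical axis). Circles are published targets and diamonds partners, black where the adjusted p was under 0.05; the intervals of Hgf, Met and Chuk include 0, and those of Plau, Map3k7 and Tab2 do not although their adjusted p missed the threshold.

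The kinases Pak2 and Ptk2b, which act in cytoskeletal remodelling and adhesion signalling, both fell. Pak2 encodes a kinase activated by the GTPases Rac and Cdc42. Its brightest probe, at chr16:31692619-31692678, gave log2 ratios of 0.28 and 0.21 against -0.43 and -0.36, with Cy5 intensities of 12311 and 11533 against 6546 and 6896. The replicates of each group were close and the groups far apart. Pak2 fell by 0.64 ± 0.12 (SE, adjusted p = 0.0440 in limma), or 1.56-fold. Both other probes were also lower without overlap. At chr16:31696349-31696408 the log2 ratios were 1.11 and 0.67 against 0.05 and -0.05, a difference of -0.89 (adjusted p = 0.0488 in the fit of all probes). At chr16:31693489-31693548 they were 0.87 and 0.55 against 0.21 and 0.46, a difference of -0.38 that was not called (adjusted p = 0.241). The direction held for all 3 probes and over all 18 settings, where the difference lay between -0.78 and -0.61, but 7 of these settings called it.

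Ptk2b encodes Pyk2, a cytoplasmic tyrosine kinase related to focal adhesion kinase. Its brightest probe, at chr14:61014036-61014095, gave log2 ratios of 0.08 and -0.42 with vector against -1.13 and -1.19 with the cluster. The Cy5 intensities were 1120 and 992 against 483 and 457. Vector replicate 1 was above replicate 2, and both were above the other group. Ptk2b fell by 0.99 ± 0.20 (SE, adjusted p = 0.0497 in limma), just inside the threshold. The difference was -0.75 without vector replicate 1 and -1.24 without vector replicate 2. The junction probe had log2 ratios of 0.96 and 0.22 against -0.19 and -0.29, also without overlap, and a difference of -0.83 (adjusted p = 0.116 in the fit of all probes). Of 18 settings 11 called Ptk2b.

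Within the TAK1 complex the adaptor Tab3 fell, while the differences of Tab2 and of the kinase itself were not called. Tab3 is read by 1 probe, at chrX:81020836-81020895, with log2 ratios of 0.71 and 1.04 in vector cells against -0.28 and -0.11 in those with the cluster. Its Cy5 intensity was 3904 and 5614 against 1940 and 2184. The vector arrays were above the reference and the others below it. Tab3 fell by 1.07 ± 0.17 (SE, 95% interval -1.51 to -0.64, adjusted p = 0.0293 in limma), which is 2.11-fold and had the smallest p of the 10 genes. Of 18 settings 15 called it, and the 3 that did not were every local background as measured (adjusted p = 0.0822) and leaving out either miR-23b/27b/24 array (adjusted p = 0.221 and 0.154).

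Tab2, the paralog of Tab3, had a smaller difference. Its brightest probe, at chr10:7606455-7606514, gave log2 ratios of 0.29 and 0.51 against -0.04 and -0.19, with Cy5 intensities of 5278 and 7676 against 4949 and 4342. The ratios did not overlap, although the intensities of vector replicate 1 and miR-23b/27b/24 replicate 1 were close. The difference was -0.51 ± 0.15 (SE, limma adjusted p = 0.100), and no setting that used all 4 arrays called it. With 1 array left out it lay between -0.62 and -0.40. The probe at chr10:7607293-7607352 gave 0.54 and 0.76 against 0.37 and 0.59, which overlapped, a difference of -0.17 (adjusted p = 0.547 in the fit of all probes). The remaining probe did not pass the filter. Whether Tab2 and Tab3 differ in their response was not tested.

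Map3k7, the kinase TAK1 to which both adaptors bind, is a partner and had the opposite sign. Its probe at chr4:32295449-32295508 gave log2 ratios of 0.13 and 0.22 with vector against 0.67 and 0.52 with the cluster. The Cy5 intensities were 201 and 217 against 359 and 299. The groups did not overlap, and the difference of 0.42 ± 0.13 (SE, limma adjusted p = 0.124) was positive in all 18 settings and called in none, with an unadjusted p = 0.0258 in the fit reported.

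Chuk, downstream of TAK1, showed no detected difference. Its brightest probe, at chr19:43967895-43967954, gave log2 ratios of -0.79 and -0.31 against -0.76 and -0.93, and Cy5 intensities of 1794 and 2875 against 1977 and 1636. Vector replicate 2 stood above the other 3 arrays, so the groups overlapped. The difference was -0.29 ± 0.20 (SE, 95% interval -0.82 to 0.23, limma adjusted p = 0.426), -0.53 without vector replicate 1 and -0.05 without vector replicate 2. The other probe gave -0.003 (adjusted p = 0.995 in the fit of all probes).

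**Figure D3:**
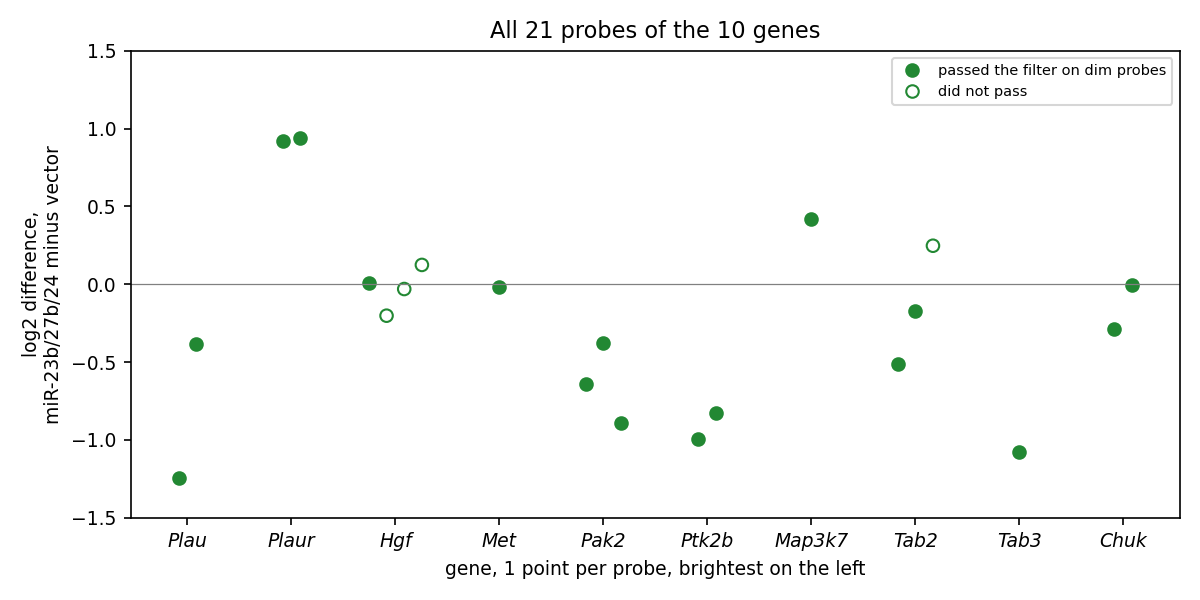
Log2 difference between miR-23b/27b/24 and vector arrays (vertical axis) of all 21 probes of the 10 genes (horizontal axis), the brightest probe of a gene on the left; open circles are the 4 probes that did not pass the filter on dim probes. The 2 probes of Plaur, the 3 of Pak2 and the 2 of Ptk2b share a sign, while those of Plau, at -1.24 and -0.38, and the 2 kept probes of Tab2, at -0.51 and -0.17, differ in size.

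Of the 17 probes that passed the filter, 11 had groups that did not overlap, 8 of them lower and 3 higher in the miR-23b/27b/24 cells. Over all genes, by the brightest probe, 59.4% did not overlap, 32.2% lower and 27.3% higher. In the fit of all probes 6 of the 17 passed an adjusted p of 0.05, as did 9.97% of the brightest probes of all genes. The 6 were both probes of Plaur, 2 of Pak2, and 1 each of Ptk2b and Tab3. Of the 6 genes with more than 1 such probe, the difference had the same sign in each probe of every gene. That of the dimmer Chuk probe was near 0, at -0.003, and the share of all genes with such agreement was not counted.

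The genes whose 4 log2 ratios lay closest to those of Tab3, after each was centred on its mean, were Smad1, a transducer of BMP signals, at a Euclidean distance of 0.0556, the lipoxygenase gene Aloxe3 at 0.0734 and the methyltransferase gene Setd6 at 0.0778. Smad1 itself was at 0.59 and 0.90 with vector against -0.35 and -0.22 with the cluster. Over 4 arrays likeness is common: 52 genes lay within 0.2 of Tab3, and the median distance over all genes was 1.11.

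**Figure D4:**
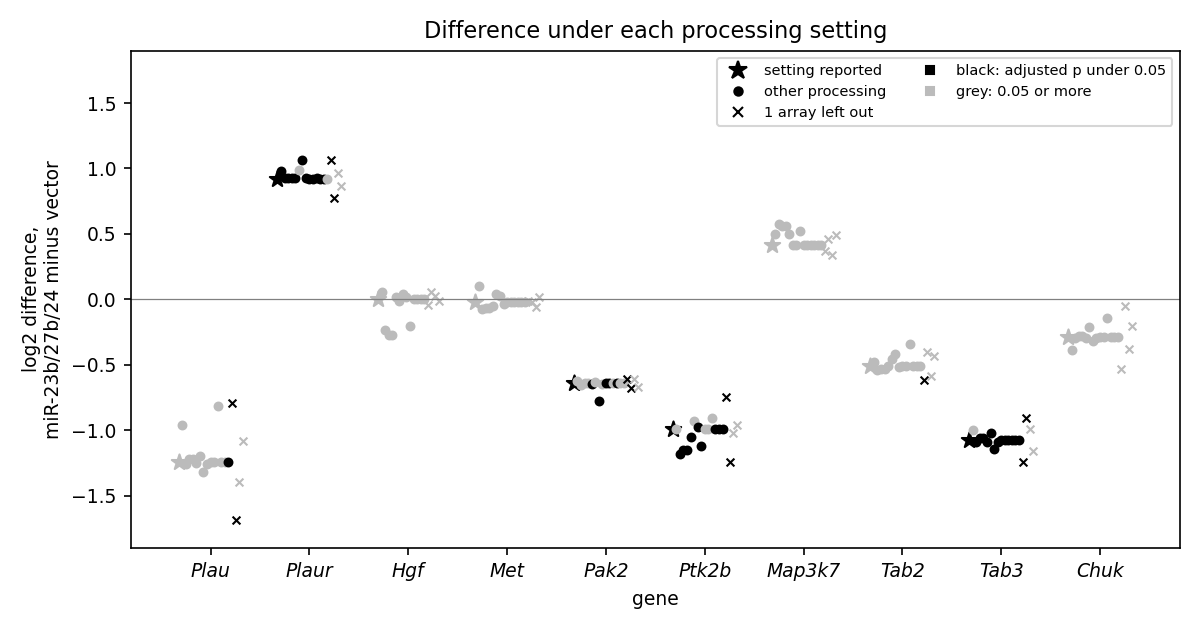
Log2 difference of each of the 10 genes (vertical axis, by gene) in the fit reported (star), under the other processing settings (circles) and with 1 array left out (crosses); black marks an adjusted p under 0.05 and grey the rest. The direction of Plau, Plaur, Pak2, Ptk2b, Map3k7, Tab2, Tab3 and Chuk was the same in all settings, and that of Hgf and Met was not.

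Other genes of these pathways were taken from 5 lists. With every local background as measured, where 3.03% of all genes were called, 4 genes of the uPA list, 3 of the other miR-23 targets, 1 of the HGF list and 0 of the TAK1 and PAK lists were called. Without either miR-23b/27b/24 array, where 0.395% of all genes were called, each list held 0 or 1. The wider uPA system was read through 25 genes of plasminogen activation and its receptors and inhibitors, of which 22 were measured. Of these 1 fell and 2 rose, or 13.6% called against 9.04% of all genes, with a median log2 difference of -0.19. Without the members, 1 of 20 genes fell and 1 rose, or 10%, near the share of all genes. Beside Plaur, Mrc2, a collagen receptor that associates with uPAR, rose 1.69-fold, but had a difference of -0.12 with every local background as measured. The substrate gene Plg was not called and was uneven between the vector arrays, at 0.53 and 3.80, against -0.14 and -0.36.

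Of 32 genes of the HGF and Met pathway, all measured, 1 fell and 1 rose, or 6.25% called against 9.04% of all genes. Their median log2 difference was -0.04, against -0.03 over all genes. St14, whose product matriptase is a protease that activates pro-HGF, fell 17.1-fold by its brightest probe; its other probe gave a log2 difference of -0.89. Hras, a GTPase downstream of Met, rose 1.76-fold (limma adjusted p = 0.0350), and 11 of 18 settings called it. Spint2, an inhibitor of the proteases that activate HGF, had log2 ratios of 2.65 and 2.55 against 1.04 and 1.76 and was not called (adjusted p = 0.0584).

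Of 38 genes of the TAK1 and NF-kappaB pathway, 37 were measured, 3 fell and 2 rose, or 13.5% called against 9.04% of all genes. The median log2 difference was -0.10, against -0.03 over all genes. Without the members, 2 of 33 genes fell and 2 rose, or 12.1%. Besides Tab3, the falls were those of Rnf31, the catalytic subunit of the linear ubiquitin ligase, 2.50-fold, and of Birc3, a ubiquitin ligase of the TNF receptor complex, 1.85-fold (its other probe gave a log2 difference of -0.02). The kinases Map2k6 and Map2k3, which activate p38 and can be activated by TAK1, rose. Map2k3 was at log2 ratios of -0.44 and -0.60 against 0.70 and 0.46, a rise of 1.10 ± 0.15 (SE, adjusted p = 0.0216 in limma). Map2k6 rose 3.97-fold by its brightest probe, at -1.28 and -1.26 against 0.36 and 1.08, 5.08-fold without miR-23b/27b/24 replicate 1 and 3.1-fold without replicate 2; its other 2 kept probes gave log2 differences of 0.00356 and 1.03. Tnfaip3, which encodes the NF-kappaB inhibitor A20, had log2 ratios of 1.48 and 0.63 against -0.41 and -0.38 and just missed the threshold (adjusted p = 0.0524). The first TAK1-binding adaptor, Tab1, had a difference of 0.26 (adjusted p = 0.238).

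Of 33 genes of PAK and Pyk2 signalling, 31 were measured and 4 fell, or 12.9% called, with a median of -0.18. None rose in limma. At an unadjusted p under 0.05, 9 were lower and 2 higher, against 12.9% and 14.3% of all genes. Besides Pak2 and Ptk2b, the genes that fell were Pak3, a relative of Pak2, 2.00-fold lower (limma adjusted p = 0.0366), and Asap2, an Arf GTPase-activating protein that binds Pyk2, 2.43-fold lower. Pak3 was at log2 ratios of -0.42 and -0.80 against -1.56 and -1.68, and its other kept probe gave a difference of -0.32. Asap2 was 1.94-fold lower without vector replicate 1 and 3.04-fold without vector replicate 2. Without the members, 2 of 29 genes of this list were called, or 6.90%, below the background of 9.04%.

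Among 24 other published miR-23 targets, all measured, 4 fell and 1 rose, or 20.8% called against 9.04% of all genes. Their median log2 difference was -0.13, against -0.03 over all genes. Marcks, a substrate of protein kinase C at the plasma membrane, fell 5.98-fold, with log2 ratios of -1.17 and -1.23 against -4.40 and -3.16; the fold was 3.90 without miR-23b/27b/24 replicate 1 and 9.17 without replicate 2. Prodh, the first enzyme of proline breakdown, fell 2.48-fold, and Tgfbr2, a receptor for TGF-beta, 2.27-fold, although its other kept probe gave a log2 difference of -0.41. The transcription factor Runx2 fell 1.58-fold by its brightest probe, and its other kept probes gave log2 differences of -0.64 and -0.03. Runx2 was not called with the mean of its probes (limma adjusted p = 0.0771) or with every local background as measured (0.0722). Lpar1, a receptor for lysophosphatidic acid, rose 2.50-fold, and its other probe gave a log2 difference of 1.42.

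**Figure D5:**
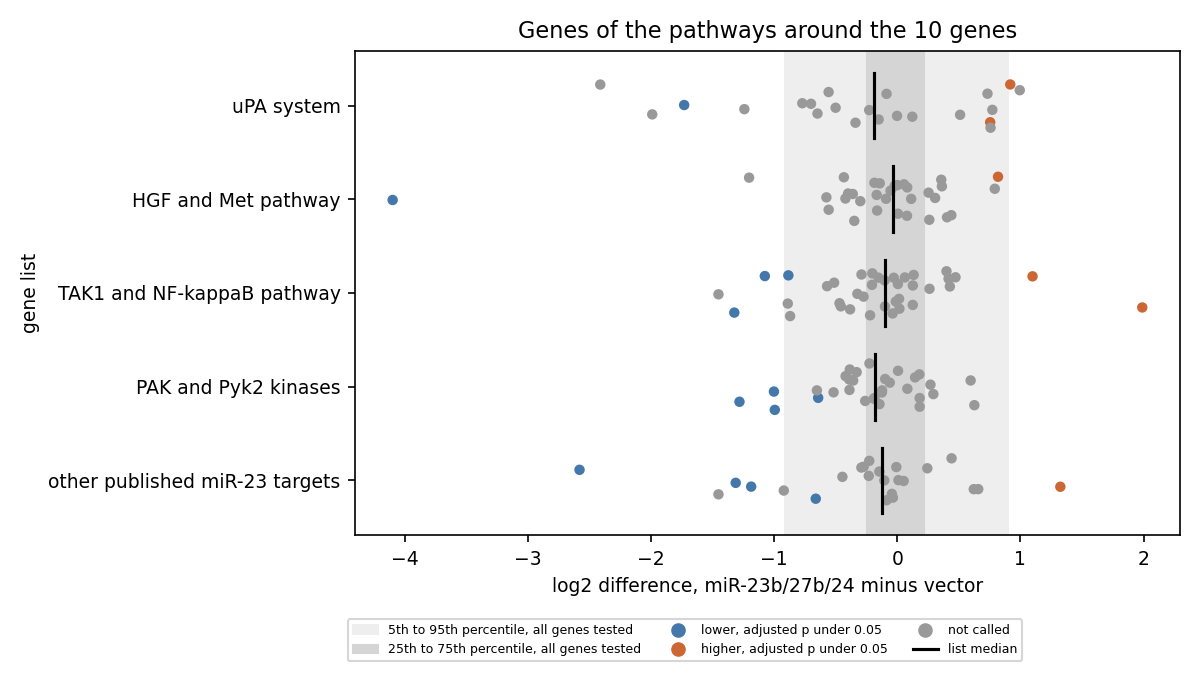
Log2 difference between miR-23b/27b/24 and vector arrays (horizontal axis) of the measured genes of the 5 lists (vertical axis, points spread for sight), blue where lower and orange where higher at an adjusted p under 0.05, with a black line at each list's median. Shading gives the 25th to 75th percentile of all genes tested (-0.25 to 0.22) and the 5th to 95th (-0.91 to 0.90), and the medians of all 5 lists lie within the inner band.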

How the data were processed

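Agilent Feature Extraction 9.5.3.1 (per the file headers) gave, as intensity, the mean signal and local background of a spot in either dye and processed signals, and the log10 ratio of Cy5 over Cy3. The authors' deposited value table holds log2 ratios less the probe's median of the 4 arrays: 87.3% to 87.8% of its values lay within 0.001 of the Feature Extraction ratio centred in that way. All arrays shared 1 slide and 1 scan, with 1 dye orientation.

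In R 4.3.3 with limma 3.58.1, local backgrounds that Feature Extraction marked as outliers (1782 to 1976 spots per array in Cy5) were set to the array's median in both channels. Normexp (offset 50) and loess within arrays followed, with control spots at weight 0 and outlier spots left out. The replacement was adopted with both of its results known. A probe was kept where Cy5 was well above background on both arrays of a group (30096 of 41174), and a gene was represented by its brightest kept probe. The group difference was tested by lmFit with eBayes (degrees of freedom 2 residual, 2.86 prior) and Benjamini-Hochberg adjustment over 20512 genes at 0.05. Probe symbols came from accessions, symbols and synonyms in a RefSeq table (GRCm38.p6) that served for names only; microRNA sequences came from RefSeq. Of the mature microRNAs, miR-23b-3p had no entry in that table. The test was checked on data simulated from its own fitted model, which cannot show how the background step or single arrays affect the calls.

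Members, lists and alternatives were chosen with earlier results of these data known. Named genes were all members, up to 4 called genes with the largest change per list, and the 3 genes nearest the member with the smallest p; others named with values (Birc3, Runx2, Plg, Spint2, Tnfaip3, Tab1, Cd68 and other markers) were chosen after their values were seen. A result for 1 gene that this rule names is not reported here. The number of arrays limits the precision.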

Additional observations from a re-analysis of the deposited data

How the results depend on the processing

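The number of genes called fell from 1854 to 621 with every local background as measured, and lay between 81 and 4478 with 1 array left out: 81 without either miR-23b/27b/24 replicate, 4478 without the first vector array and 2632 without the second. A lone array is then taken to vary as those of the other group do. Of the 10 genes, 4 were called in the fit reported, 1 with every local background as measured (Plaur), 1 with median centring in place of loess (Tab3), 2 with the mean of a gene's probes (Plaur and Tab3), and between 0 and 6 with 1 array left out. The count was within 1.5 times in the other settings. The sign of Hgf turned with Feature Extraction processed signals and loess (-0.24), the Feature Extraction log ratio and the authors' deposited table (-0.28 each), median centring (-0.017) and no filter on dim probes (-0.20, by another probe), and lay between -0.041 and 0.053 with 1 array left out. That of Met turned with every local background as measured (0.11), median centring (0.04) and Cy5 alone (0.024), and lay between -0.059 and 0.019 with 1 array left out. That of Mrc2 turned with every local background as measured (-0.12). With the replicate number as a block 1739 genes and 3 of the 10 were called; Plau passed (adjusted p = 0.0378), and Plaur and Pak2 missed (adjusted p = 0.0505 and 0.0768). The arrays share only a number: deviations of same-numbered arrays from their group means correlated at 0.0459 across genes. Hgf gave no value where both channels had to be well above background on all arrays.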

Other observations

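Clone probes that the RefSeq table lists under a synonym of Met or Pak2 were kept out of the 10 genes, because the files name the clones and not the genes. Both probes of the clone AI838057 (listed for Met) had groups that overlapped, at 0.29 and -0.35 on the vector arrays against 0.08 and 0.14, and at 0.54 and -0.30 against 0.39 and 0.31. The probe of the clone 5330420P17Rik (listed for Pak2) had log2 ratios of -0.20 and -0.17 against 0.07 and -0.18, a difference of 0.13 (adjusted p = 0.624 in the fit of all probes), where the 3 probes under the name Pak2 had differences between -0.89 and -0.38.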
